A study of Mus musculus with 6 samples.

Results

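The 10 genes described here are known for their part in the response of endothelial cells (ECs) to blood flow and in the quiescent state that steady flow maintains. They were the Kruppel-like factors Klf2, Klf4 and Klf6, the mechanosensitive channel gene Piezo1, the forkhead factors Foxo1 and Foxo3, and the sphingosine-1-phosphate (S1P) genes S1pr1, S1pr3, Spns2 and Sphk1. They were chosen by gene symbol for these known roles, but with earlier results of these data known. Their counts beside all genes are thus descriptions. All 10 were found among the 22026 genes listed for each sample. Piezo1 was listed under its older symbol Fam38a. RNAseq had been carried out on choroid ECs of 129/B6 mice at postnatal day 5 (P5), when the retina is still maturing, and at postnatal day 30 (P30), when vision is mature. There were 3 isolations per age, and each pooled the RPE/choroid tissue of 7 animals (14 eyes). The labels name no transgene or treatment. The ECs of both ages had been labelled in the living animal by an injected antibody to VE-Cadherin, an EC adhesion protein, and then sorted. The handling was not the same at both ages. According to the methods, the P5 pups were chilled as anaesthesia and had a smaller antibody dose than the P30 mice. This difference goes with age in all isolations, and its part in the results was not tested. Each value is thus the mean of a pool of animals, and cells of arteries, veins and capillaries were sequenced together.

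Laminar shear stress on the EC surface is sensed by channels and adhesion complexes, Piezo1 among them, and activates a kinase cascade (MEKK3, MEK5 and ERK5) that ends in the MEF2 transcription factors. These induce Klf2 and Klf4, which in turn raise genes that keep the vessel wall relaxed, anticoagulant and resistant to inflammation. S1P is made by the kinases Sphk1 and Sphk2, leaves the EC through the carrier Spns2 and acts on the receptors S1pr1 and S1pr3. S1pr1 couples to Gi proteins and steadies junctions and limits sprouting, whereas S1pr3 also couples to Gq and G12/13 proteins and is known in mural cells as well as in ECs. Foxo1 restrains EC growth and metabolism, and both FOXO factors are held outside the nucleus by the kinase AKT, so that their activity does not follow from their RNA level.

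Klf2, Klf4, S1pr1 and S1pr3 were the genes called higher at P30 by the limits given below. The upstream sequence is shown for the 3 of them for which it was found. The sequences are the 250 bases before the RefSeq transcript start (RefSeq, build GRCm38.p6), on the strand of the gene. Each window had 1 exact match on its chromosome in NCBIM37 (mm9), the build of the deposited data, and the coordinates are those of that match. Windows were found for 9 of the 10 genes, all but S1pr1. Capitals mark a match to the MEF2 consensus in Klf2 and S1pr3, and a match to the letters TGTTTA, the core bound by forkhead factors, in Klf4.
Klf2, chr8:74842711-74842960, plus strand: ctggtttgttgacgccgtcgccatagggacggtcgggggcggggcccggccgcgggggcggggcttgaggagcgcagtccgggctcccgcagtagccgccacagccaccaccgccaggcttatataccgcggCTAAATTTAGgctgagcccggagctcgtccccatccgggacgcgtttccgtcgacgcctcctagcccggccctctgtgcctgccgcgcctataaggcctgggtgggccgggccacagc
Klf4, chr4:55545348-55545597, minus strand: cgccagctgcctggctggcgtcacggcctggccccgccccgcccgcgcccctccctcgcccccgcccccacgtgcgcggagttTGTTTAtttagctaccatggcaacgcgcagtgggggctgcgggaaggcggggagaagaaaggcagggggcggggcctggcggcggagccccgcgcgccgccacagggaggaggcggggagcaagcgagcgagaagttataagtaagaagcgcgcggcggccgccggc
S1pr3, chr13:51503737-51503986, plus strand: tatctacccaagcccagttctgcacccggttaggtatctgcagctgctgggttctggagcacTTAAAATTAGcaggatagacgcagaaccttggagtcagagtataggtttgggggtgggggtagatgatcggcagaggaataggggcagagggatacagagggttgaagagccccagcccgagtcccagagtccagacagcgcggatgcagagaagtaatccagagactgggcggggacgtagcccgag

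The MEF2 match of Klf2 began 118 bases before the RefSeq start and that of S1pr3 188 bases before it. Among the 9 genes with a window these were the 2 with such a match, and a match on either strand was present in 2.92% of the 32851 windows of the same length. The TGTTTA match of Klf4 began 167 bases before the start, and Sphk1 held these letters in 2 of its 5 windows. Thus 2 of the 9 genes had a TGTTTA match, and 12.0% of all windows held these letters on either strand. The letters CACCC, which KLF factors bind, were present on either strand in 4 of the 9 genes (Klf2, Piezo1, S1pr3 and Sphk1) and in 52.0% of all windows. A CArG box, the motif of the serum response factor, was present in 0 of the 9 genes and in 1.47% of all windows. The Klf2 window ran 28 bases past the gene start of the GENCODE annotation of mm9, while those of Klf4 and S1pr3 ended at it. The 9 genes had 13 windows in all, so their counts by gene are not the same measure as the shares of windows. A match describes the letters of a window and does not show that a factor binds there.

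The deposited values are FPKM, a measure of RNA level scaled both to the length of the transcript and to the number of reads, so that the levels of different genes can be set side by side. The read depth was unknown, and p-values measure the spread between 3 pooled isolations per age. EC identity was checked on 12 EC markers, which were all above 0 in each isolation and had a sum of 25614 to 28263 FPKM at P5 against 37041 to 45894 at P30. Of these, Plvap was the 1 gene called higher at P30, a count near the 5.89% of all genes tested. Plvap rose from 4692 to 11589.8 (adjusted p = 0.00182 from limma). Cdh5, which encodes VE-Cadherin, was lower at P30 without overlap and under 2-fold (2971 and 1885, log2 difference -0.66, adjusted p = 0.00205 from limma). Several lists of markers of other cells had higher sums at P30. The 8 RPE markers, of which Ttr and Rgr had the highest means over all 6 isolations, summed to between 91.3 and 178 at P5 and to 3939, 2228 and 554 in the P30 replicates, taken here and throughout in the order 1, 2 and 3. The 7 pericyte markers, of which Rgs5 and Pdgfrb had the highest means over all 6 isolations, had a sum of 1765, 933 and 497 in the P5 replicates, against 1872, 6290.4 and 3857 in the P30 replicates. In bulk samples such as these, a change in the number of cells of a type cannot be told apart from a change in RNA per cell.

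A gene was called when its difference in log2(FPKM + 1) between the ages had a Benjamini-Hochberg adjusted p under 0.01 in limma, over all 12481 genes tested, and its mean FPKM + 1 differed at least 2-fold. By these limits 4 of the 10 genes were higher at P30, against 5.89% of all genes tested. None of the 10 was called higher at P5 by limma, against 5.82% of all genes tested, and 1 had an unadjusted p under 0.05 in that direction. With the samples rescaled to the same FPKM sum, 631 genes were called higher at P30 and 1067 higher at P5, in place of 735 and 726, and the same 4 genes of the 10 were called. Every P30 isolation lay above every P5 isolation in 6 of the 10 genes, against 22.0% of all genes tested. The reverse held in Piezo1 alone of the 10, against 33.0% of all genes tested. An adjusted p under 0.05, whatever the fold, was reached by 7 of the 10 genes, against 38.5% of all genes tested. Sphk1, counted in these 7 and in the 6 above, passed the minimum for the test only through its P30 mean. The median difference over the 10 genes, P30 minus P5, was 0.88 on the log2 scale, and over all genes tested it was -0.10. The median of the 10 includes Sphk1 (2.28), which had to be higher at P30 to be tested, and is raised by it.

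**Figure D1:**
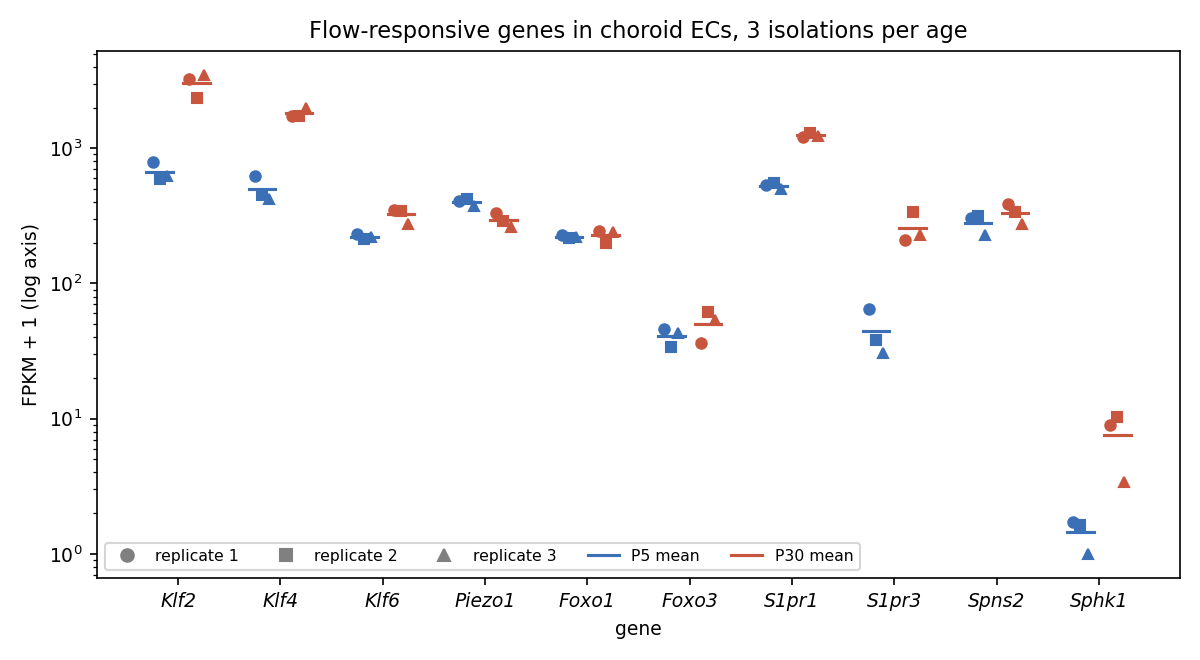
FPKM + 1 on a log axis for the 10 genes, with a symbol per isolation and a line at the mean of each age (P5 blue, P30 red). The 3 P30 isolations of Klf2, Klf4, Klf6, S1pr1, S1pr3 and Sphk1 all lie above the 3 P5 isolations, and those of Piezo1 all lie below.

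Klf2 was the most abundant of the 10 genes at both ages and showed a 4.52-fold higher mean at P30. Klf2 (chromosome 8, 74842932 to 74845555 of mm9) encodes the factor that is induced most directly by laminar flow. Its FPKM was 795, 593 and 624 at P5, against 3257, 2335 and 3499.9 in the P30 replicates. The lowest P30 isolation was thus far above the highest P5 isolation. The mean rose from 671 ± 109 (SD, n = 3) to 3030.5 ± 615 (SD, n = 3), a difference of 2.16 on the log2 scale (SE 0.18, adjusted p = 0.000301 from limma). In P30 replicates 1, 2 and 3, Klf2 ranked 33, 60 and 28 from the highest among the 22026 genes listed, against 234, 361 and 309 in the P5 replicates.

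Klf4, a related factor that shares many targets with Klf2 in ECs, rose to a similar extent. Klf4 (chromosome 4, 55540013 to 55545347) had an FPKM of 622, 447 and 422 at P5, against 1728, 1725 and 1973 in the P30 replicates. The P30 isolations lay close together, and all were above the P5 isolations. The mean rose from 497 ± 109 to 1809 ± 142 (SD, n = 3), a 3.64-fold change and 1.88 on the log2 scale (SE 0.16, adjusted p = 0.000297 from limma).

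Klf6, an early response factor with roles in vessel repair, differed less. Klf6 (chromosome 13, 5860735 to 5869639) had an FPKM of 232, 211 and 221 at P5 and of 349, 345 and 275 at P30 in replicates 1, 2 and 3. All P30 isolations were above all P5 isolations, but the 1.46-fold difference was under 2-fold and did not pass the adjusted p either (0.54 on the log2 scale, SE 0.12, adjusted p = 0.0114 from limma).

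The balance between the 3 factors was compared as a ratio within each isolation, in which a constant scaling of an isolation cancels but for the 1 added to each FPKM. Klf2 exceeded Klf6 by 3.00-fold at P5 and by 9.26-fold at P30, and the log2 ratio was 1.77, 1.48 and 1.49 in the P5 replicates against 3.22, 2.76 and 3.66 in the P30 replicates. These did not overlap (two-sided exact permutation, p = 0.1, which is the lowest value 3 isolations per age can give, and 0.167 adjusted over the 5 ratios tested). The ratio of Klf2 to Klf4 was 1.36 at P5 and 1.65 at P30, and its log2 difference of 0.28 was within the spread between isolations (two-sided exact permutation, p = 0.2, adjusted 0.25).

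The immediate early genes, which are induced within minutes by many stimuli, tissue dissociation among them, moved in the same direction as the KLF factors. Of 18 listed, 17 were tested, 15 were called higher at P30 (against 5.89% of all genes tested) and 0 the other way, and the median difference of the 17 was 2.26 on the log2 scale. Fos rose from 2136 ± 667 to 10223 ± 2881 FPKM (SD, n = 3, log2 difference 2.26, SE 0.26, adjusted p = 0.000926 from limma), and Egr1 from 1948 ± 524 to 8934 ± 1672 (log2 difference 2.21, SE 0.21, adjusted p = 0.000452 from limma). The sum over the list was 16068, 10719.8 and 10344 FPKM at P5, against 56392, 71672 and 56505 in the P30 replicates. P5 replicate 1 was the highest of its age for this sum and for Klf2, Klf4 and Klf6. Among the P30 isolations, replicate 2 had the highest sum and the lowest Klf2. The part of these genes' rise in the differences of Klf2, Klf4 and Klf6 was not tested. Nor was that of the anaesthesia and antibody dose, which differed between the ages.

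Piezo1, which encodes a channel opened by membrane tension and shear, was the single member with all P5 isolations above all P30 isolations. Piezo1 (chromosome 8, 125005598 to 125075229) had an FPKM of 404, 419 and 374 at P5, against 329, 289 and 263 in the P30 replicates. The mean was 399 ± 23.2 at P5 and 294 ± 33.3 at P30 (SD, n = 3), and the difference of -0.44 on the log2 scale did not pass the limits (SE 0.11, adjusted p = 0.0181 from limma). Over the 17 other settings tried it ranged from -0.61 to -0.35, always under 2-fold. The annotation places Ctu2 and Gm20388 across Piezo1 on the opposite strand, and reads of overlapping genes cannot be told apart in libraries that do not mark strand.

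Foxo1 did not pass the limits, and neither did Foxo3. Foxo1 (chromosome 3, 52072259 to 52154031), the main FOXO factor of ECs, had an FPKM of 228, 217 and 219 at P5 and of 245, 198 and 241 at P30 in replicates 1, 2 and 3. The ages overlapped, with a difference of 0.04 on the log2 scale (SE 0.11, adjusted p = 0.818 from limma) whose sign changed with the scaling, to -0.018 with quantile normalization and -0.13 with equal sums. Foxo3 (chromosome 10, 41901647 to 41996561) had 45.4, 33.0 and 41.8 at P5 and 35.01, 60.8 and 52.6 at P30, again with overlap (log2 difference 0.27, SE 0.23, adjusted p = 0.367 from limma). Foxo1 was 5.46 times as abundant as Foxo3 at P5 and 4.63 times at P30 (log2 difference of the ratio -0.24, two-sided exact permutation, p = 0.5, adjusted 0.5).

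S1pr1, the main S1P receptor of ECs, rose with the smallest SE of the 10 genes. S1pr1 (chromosome 3, 115413351 to 115417973) had an FPKM of 530.2, 553 and 500.4 at P5, against 1212, 1289 and 1226 in the P30 replicates. The isolations of each age lay close together and the ages far apart. The mean rose 2.35-fold, from 528 ± 26.4 to 1242 ± 40.9 (SD, n = 3), or by 1.23 on the log2 scale (SE 0.09, adjusted p = 0.000183 from limma).

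S1pr3 rose most of the called genes, from a lower level and with a wider spread. S1pr3 (chromosome 13, 51503987 to 51518166) had an FPKM of 63.3, 37.0 and 29.5 at P5, against 208, 335 and 228 in the P30 replicates. The mean rose 5.94-fold, from 43.2 ± 17.7 to 257 ± 68.1 (SD, n = 3), or by 2.59 on the log2 scale (SE 0.30, adjusted p = 0.000847 from limma). At each age the order of the isolations was the same as that of the summed pericyte markers, the highest being P5 replicate 1 and P30 replicate 2. The immediate early sum had the same order too, so the order does not single out pericytes. That sum was 16068, 10719.8 and 10344 in the P5 replicates and 56392, 71672 and 56505 in the P30 replicates. Over the 9 pairs of a P30 and a P5 isolation, the pericyte sum was 1.06-fold to 12.7-fold higher at P30 and S1pr3 3.29-fold to 11.4-fold. In the pair with the smallest difference in the pericyte sum (1.06-fold, replicate 1 of both ages) S1pr3 was 3.29-fold higher, and in the pair with the largest (12.7-fold, P30 replicate 2 over P5 replicate 3) it was 11.4-fold higher, no more than the pericyte sum. In P30 replicate 3 over P5 replicate 3 both were alike, at 7.77-fold and 7.74-fold. Over the same pairs S1pr1 ranged from 2.19-fold to 2.58-fold, Klf2 from 2.94-fold to 5.91-fold and Klf4 from 2.78-fold to 4.67-fold. In the replicate 1 pair the pericyte genes Cspg4 (50.7 at P5 and 21.0 at P30), Notch3 (124 and 107) and Abcc9 (199 and 92.5) were lower at P30. The others of that list were slightly higher. All smooth muscle markers were higher there, among them Smtn (420 and 471), Acta2 (76.9 and 209) and Myh11 (11.3 and 41.3). These genes were named after their values were seen. The part of pericytes, smooth muscle cells and the immediate early response in the difference of S1pr3 was not tested beyond these values.

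The ratio of S1pr1 to S1pr3 within an isolation was 12.6 at P5 and 4.93 at P30. Its log2 value was 3.05, 3.87 and 4.04 in the P5 replicates and 2.54, 1.94 and 2.42 in the P30 replicates. The ages did not overlap, with a difference of -1.35 (two-sided exact permutation, p = 0.1, the lowest possible, adjusted 0.167).

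Spns2, the S1P carrier of ECs, did not pass the limits. Spns2 (chromosome 11, 72265140 to 72303463) had an FPKM of 305, 313 and 226 at P5 and of 388, 338 and 272 at P30 in replicates 1, 2 and 3. In both ages replicate 3 was the lowest and the ages overlapped (log2 difference 0.24, SE 0.17, adjusted p = 0.301 from limma). Mybbp1a overlaps Spns2 on the opposite strand in the annotation.

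Sphk1, a kinase that makes S1P, had the lowest level of the 10 genes. Sphk2, which also makes S1P and is not among the 10, had 35.8 ± 2.80 FPKM at P5 and 41.5 ± 4.61 at P30 (SD, n = 3). Its ages overlapped, and it was named after its values were seen. Sphk1 (chromosome 11, 116392239 to 116397988) had an FPKM of 0.71 and 0.63 in P5 replicates 1 and 2, was listed at 0 in P5 replicate 3, and had 8.04, 9.28 and 2.41 in the P30 replicates. It passed the minimum for the test, a mean FPKM of 5, only through its P30 mean of 6.58. All P30 isolations were above the P5 isolations, but the difference did not pass the adjusted p (log2 difference 2.28, SE 0.62, adjusted p = 0.0253 from limma). It passed without P30 replicate 3, the lowest of its age, at 2.78 on the log2 scale (adjusted p = 0.00736 from limma). The ratio of Spns2 to Sphk1, 1 of the 5 ratios tested, is not given, since at P5 it is set by the 1 added to the FPKM of Sphk1.

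**Figure D2:**
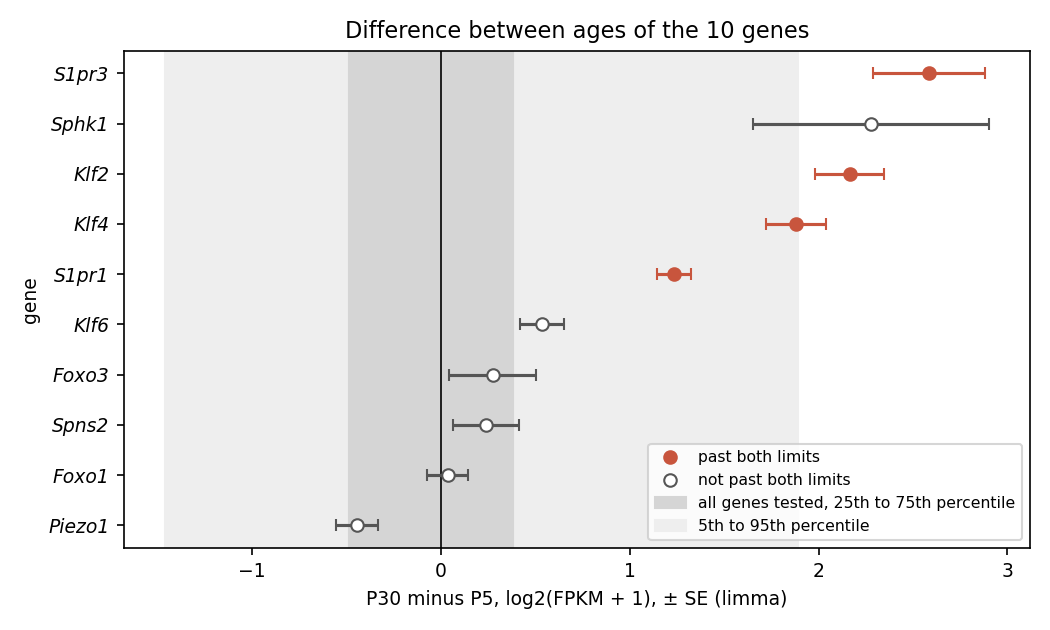
Difference between the ages of each of the 10 genes (P30 minus P5, log2(FPKM + 1), limma coefficient with its SE). Filled red symbols are the 4 genes past both limits, and the grey bands give the range of all genes tested, which runs from -1.46 at the 5th to 1.89 at the 95th percentile.

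Ordered by mean FPKM, the 10 genes at P5 were Klf2, S1pr1, Klf4, Piezo1, Spns2, Klf6, Foxo1, S1pr3, Foxo3 and Sphk1. Neighbours whose isolations overlapped were S1pr1 and Klf4, Spns2 and Klf6, Klf6 and Foxo1, and S1pr3 and Foxo3. At P30 the order was Klf2, Klf4, S1pr1, Spns2, Klf6, Piezo1, S1pr3, Foxo1, Foxo3 and Sphk1. The upper 3 were apart from each other and from the rest, while the neighbours from Spns2 to Foxo1 overlapped. S1pr3 thus stood beside Foxo3 at P5 and beside Piezo1 and Foxo1 at P30.

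The other genes of these pathways were taken from 7 lists of 109 genes, of which 100 had enough FPKM to be tested. The lists, too, were chosen with earlier results of these data known. In all, 16 were called higher at P30, against 5.89% of all genes tested, and 2 were called higher at P5, against 5.82%. The former count was 10 without P5 replicate 2 and likewise without P5 replicate 3, and the latter was 1 without P5 replicate 3 and 4 without P30 replicate 1. Of the 16, Klf15, Bcl6, Sgpp2 and Mfsd2a passed the minimum for the test only through their P30 means, so they could be called in that direction alone. In the lists below with a count of 0 higher at P5 in limma, the genes with an unadjusted p under 0.05 in that direction numbered 1 among the other KLF factors, 1 among the targets of KLF2 and KLF4, 2 among the FOXO targets and 4 among the other S1P genes. The median difference of the 100 genes was 0.21 on the log2 scale, beside -0.10 over all genes tested.

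Among the other KLF factors, 2 of the 10 tested were called higher at P30 (against 5.89% of all genes tested) and 0 higher at P5 (against 5.82%). The list's median difference was 0.43 on the log2 scale. Klf9, a factor induced by glucocorticoid and thyroid hormone, had an FPKM of 48.6, 41.1 and 39.6 at P5 and of 397, 679 and 469 at P30 in replicates 1, 2 and 3 (log2 difference 3.52, SE 0.20, adjusted p = 9.23e-05 from limma). Klf15 was listed at 0 in all P5 isolations, passed the minimum for the test only through its P30 mean, and had 7.57, 15.9 and 5.21 at P30 (log2 difference 3.27, SE 0.56, adjusted p = 0.00438 from limma), a size that depends on the 1 added to each FPKM. Klf15 was not called when any 1 isolation other than P30 replicate 3 was left out, with adjusted p between 0.0104 and 0.0191 from limma. Klf3, second to Klf9 in its mean over all 6 isolations though well above it at P5, had 245 ± 21.5 and 307 ± 6.79 at the younger and older age and was not called (log2 difference 0.33, adjusted p = 0.0327 from limma).

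The kinase cascade upstream of Klf2 and Klf4 held no gene called by limma among its 12, against 5.89% (P30 higher) and 5.82% (P5 higher) of all genes tested, so that a count of 0 is near the background. Of the 12 genes, 2 had an unadjusted p under 0.05 with P30 higher and 3 with P5 higher. The list's median difference was -0.05 on the log2 scale, beside -0.10 over all genes tested. Hdac7, a histone deacetylase that restrains MEF2, had 470.04 ± 30.5 FPKM at P5 and 454 ± 70.5 at P30 (SD, n = 3), with overlap. Heg1, the receptor of the CCM complex that dampens the cascade, had 359 ± 66.3 and 413 ± 39.5, also with overlap. Leaving the fold aside, 2 of the 12 genes reached an adjusted p under 0.01 with the higher level at P30, against 8.51% of all genes tested, and both were under 2-fold. Hdac5, another deacetylase that restrains MEF2, had 111 ± 8.87 and 186 ± 6.51 (log2 difference 0.74, SE 0.10, adjusted p = 0.00183 from limma), and Mef2d had 128 ± 3.49 and 179 ± 12.3 (log2 difference 0.48, SE 0.10, adjusted p = 0.00806 from limma). Lower at P30 without overlap, but not past the limits, were Mapk7, which encodes ERK5, with 84.8 ± 4.51 and 59.5 ± 4.05 (log2 difference -0.51, SE 0.11, adjusted p = 0.0117 from limma), Mef2c with 285 ± 10.8 and 241 ± 12.4, and the CCM gene Krit1 with 75.7 ± 1.59 and 61.5 ± 6.55. These 5 genes were chosen for mention after their values were seen.

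Of the other flow sensors and channels, 11 were tested, 1 was called higher at P5 (against 5.82% of all genes tested) and 0 higher at P30 (against 5.89%) in limma, with a median difference of 0.25. An unadjusted p under 0.05 was reached by 5 with P30 higher and 3 with P5 higher. Piezo2, the second channel gene of the Piezo family, was listed under Fam38b and fell from 214, 224 and 245 FPKM in the P5 replicates to 106, 107 and 114 in the P30 replicates (log2 difference -1.05, SE 0.10, adjusted p = 0.000394 from limma). Its fall was close to the 2-fold limit, and its difference was -0.999 without P5 replicate 3, which ended the call. Kdr and Pecam1, which form a junctional flow sensor with VE-Cadherin, had the highest means of the list over all 6 isolations and were not called. Kdr had 2488 ± 99.4 at P5 and 3389 ± 485 at P30 (adjusted p = 0.0338 from limma), and its direction reversed with quantile normalization. Pecam1 had 1611 ± 70.8 and 1421 ± 167 (adjusted p = 0.230 from limma). At P5 the semaphorin receptor gene Plxnd1, which also serves as a flow sensor, was above Pecam1, with 1645 ± 45.4 against 832 ± 43.0 at P30, just under the 2-fold limit (log2 difference -0.98, SE 0.09, adjusted p = 0.000373 from limma). The potassium channel gene Kcnj2 had 46.2 ± 2.65 and 23.7 ± 3.05, also just under that limit (log2 difference -0.94, SE 0.15, adjusted p = 0.00340 from limma). Plxnd1 and Kcnj2 were named after their values were seen.

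Of the 13 genes listed as targets of KLF2 and KLF4, 4 were called higher at P30 (against 5.89% of all genes tested) and 0 higher at P5 (against 5.82%). The median difference was 1.08 on the log2 scale, over a list that mixes induced genes with genes that KLF2 represses. It therefore gives no direction for either kind. Thbd, which encodes the anticoagulant receptor thrombomodulin and is known to be induced by both factors, rose from 399, 352 and 355 FPKM in the P5 replicates to 969, 816 and 725 in the P30 replicates (log2 difference 1.17, SE 0.13, adjusted p = 0.000686 from limma). The difference of Thbd was 0.97, under the 2-fold limit, after quantile normalization. The other 3 called genes are known in cultured ECs as genes that KLF2 represses. Vcam1, an adhesion receptor for leukocytes, rose from 23.4 ± 0.439 to 139 ± 43.6 FPKM (SD, n = 3, log2 difference 2.48, SE 0.22, adjusted p = 0.000365 from limma). Edn1, which encodes the vasoconstrictor endothelin-1, rose from 66.1 ± 22.4 to 345 ± 114 (log2 difference 2.37, SE 0.33, adjusted p = 0.00194 from limma). The third was Ace, the angiotensin-converting enzyme, also named after its values were seen (log2 difference 1.08, SE 0.19, adjusted p = 0.00503 from limma). Nos3, the endothelial nitric oxide synthase and a known induced target, had 340, 366 and 280.2 FPKM at P5 and 566, 400.2 and 412 at P30 in replicates 1, 2 and 3. Its isolations did not overlap between the ages, yet it did not pass the limits (log2 difference 0.47, SE 0.17, adjusted p = 0.0567 from limma). Cyp1b1 rose from a mean of 3.38 to 23.7 FPKM (adjusted p = 0.0106 from limma) and Ass1 from 6.62 to 22.6 (adjusted p = 0.0120 from limma). Sele rose from 30.7 to 95.5 (adjusted p = 0.0392 from limma), whereas Cxcr4 fell from 148 to 62.8 (adjusted p = 0.0183 from limma). These, too, did not overlap between the ages and were not called. Gja4, Gja5 and Palmd overlapped. Nos3 and the genes named after it here were chosen for mention after their values were seen. Tek, the most abundant gene of the list and named for that level, had 1065 ± 53.8 and 1116 ± 37.2, with overlap. Its small difference changed sign with quantile normalization and with equal sums.

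Of the 15 other FOXO pathway genes tested, 3 were called higher at P30 (against 5.89% of all genes tested) and 1 higher at P5. The latter is near the 5.82% of all genes tested. The list's median difference was 0.16. Sgk1, a kinase that phosphorylates FOXO factors as AKT does, was more abundant than any of the 10 genes and rose from 2183, 1758 and 2002 FPKM in the P5 replicates to 6417, 6058 and 7341 in the P30 replicates (log2 difference 1.74, SE 0.13, adjusted p = 0.000213 from limma). Irs2 and Insr, an adaptor and the receptor of insulin signalling, rose by 3.36 (SE 0.51, adjusted p = 0.00261 from limma) and 1.42 (SE 0.20, adjusted p = 0.00195 from limma) on the log2 scale. Irs2 was 43.7, 149 and 44.2 in the P30 replicates, against 5.86 ± 2.57 at P5. The highest value was in P30 replicate 2, where the pericyte, smooth muscle, fibroblast and immediate early sums were also the highest of their age. Without P5 replicate 2 or without P5 replicate 3, neither Irs2 (adjusted p = 0.0137 and 0.0162 from limma) nor Insr (adjusted p = 0.0120 and 0.0131 from limma) was called. Foxm1, a forkhead factor of dividing cells, fell from 68.5 ± 18.2 to 8.02 ± 3.70 (log2 difference -3.003, SE 0.35, adjusted p = 0.000967 from limma). Akt1 had 485 ± 27.1 at P5 and 407 ± 10.7 at P30 and was not called.

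Of the 19 FOXO targets, 3 were called higher at P30 (against 5.89% of all genes tested) and 0 higher at P5 (against 5.82%), with a median difference of 0.39. Angpt2, which encodes the Tie2 ligand angiopoietin-2 and is induced by FOXO1 in ECs, rose from 17.5, 17.4 and 6.06 FPKM in the P5 replicates to 87.7, 128 and 126 in the P30 replicates (log2 difference 3.08, SE 0.38, adjusted p = 0.00120 from limma). Bcl6, a transcriptional repressor that passed the minimum only through its P30 mean, rose by 2.47 (SE 0.27, adjusted p = 0.000663 from limma), and Trib1, a pseudokinase, by 1.06 (SE 0.10, adjusted p = 0.000414 from limma), or 0.89 and under 2-fold with equal sums. Txnip, a thioredoxin-binding protein and the most abundant of the list, had 1016 ± 143 at P5 and 1777 ± 148 at P30 and was under 2-fold. Btg1 had 344 ± 39.4 and 336 ± 91.7, with overlap.

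Among the other S1P genes, 4 of 20 tested were called higher at P30 (against 5.89% of all genes tested) and 0 higher at P5 (against 5.82%). The list's median difference was 0.16. Plpp1, a lipid phosphatase that can dephosphorylate S1P outside the cell, rose from 1796, 1783 and 1801 FPKM in the P5 replicates to 5216, 4337 and 6532 in the P30 replicates (log2 difference 1.56, SE 0.16, adjusted p = 0.000506 from limma), a difference that was 0.93 and under 2-fold with quantile normalization. The S1P phosphatase Sgpp2 rose from 0.473 ± 0.427 to 8.40 ± 2.11 (log2 difference 2.69, SE 0.49, adjusted p = 0.00543 from limma). The other S1P phosphatase, Sgpp1, rose by 1.42 (SE 0.15, adjusted p = 0.000627 from limma). Mfsd2a, a lysolipid transporter, rose from 3.16 ± 3.10 to 52.3 ± 27.6 (log2 difference 3.76, SE 0.62, adjusted p = 0.00368 from limma). Like Sphk1, both Sgpp2 and Mfsd2a passed the minimum only through their P30 means, so that 2 of the 4 calls of this list rest on genes that had to be higher at P30 to be tested. Mfsd2a was not called without P30 replicate 1, P30 replicate 2, P5 replicate 2 or P5 replicate 3 (adjusted p between 0.0113 and 0.0217 from limma), and Sgpp2 was called only in full or without P30 replicate 3 among these fits (adjusted p between 0.0135 and 0.0222 from limma in the others). Gnai2, the Gi subunit to which S1pr1 couples, had 2754 ± 205 at P5 and 2618 ± 192 at P30, with overlap. Among the receptors, S1pr2 had 17.7 ± 2.23 at P5 and 13.4 ± 3.91 at P30 with overlap, S1pr5 was listed at 0 in all isolations, and S1pr4 had 19.8 ± 6.01 and 45.0 ± 15.1 without being called (adjusted p = 0.0258 from limma). The receptors were named, and Sgpp1 added, after their values were seen.

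**Figure D3:**
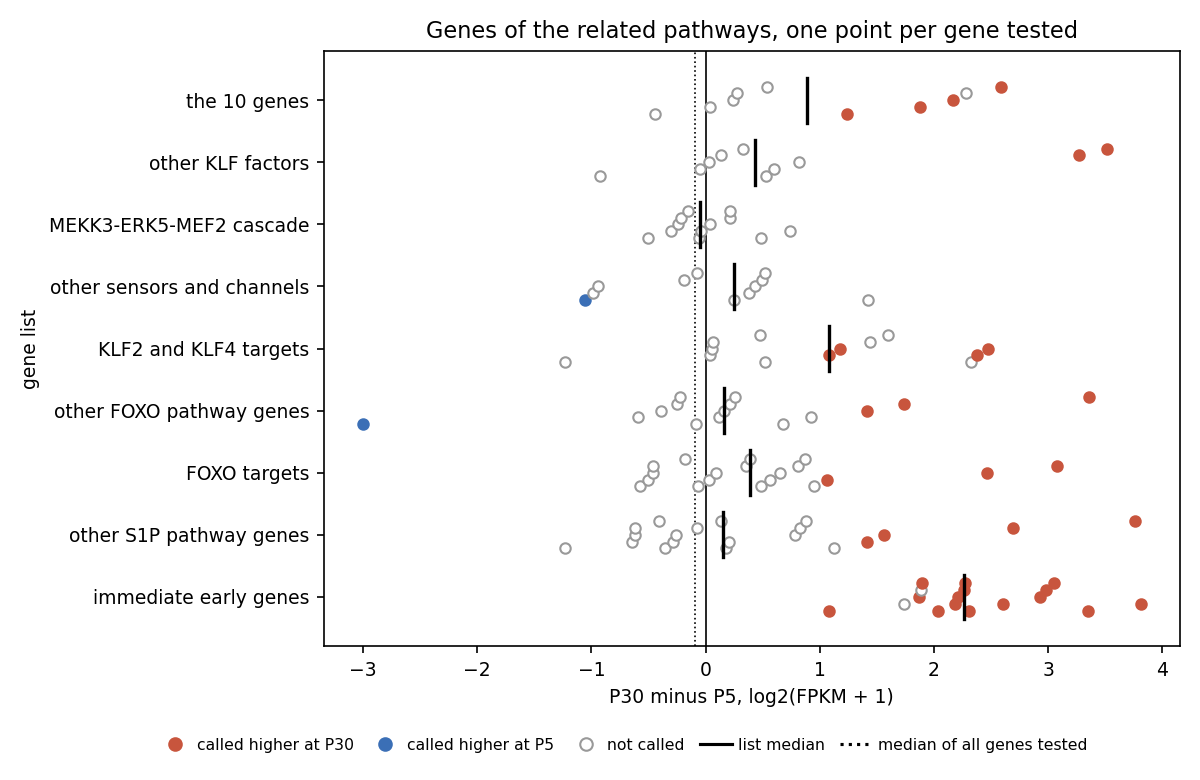
Difference between the ages (P30 minus P5, log2(FPKM + 1)) of each gene tested in the 10 genes, the 7 pathway lists and the immediate early genes, with a bar at the median of each list. Called genes are filled, red where higher at P30 and blue where higher at P5. The immediate early genes had a median of 2.26. Of the pathway lists the targets of KLF2 and KLF4, which mix induced and repressed genes, had the highest median, 1.08.

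The levels of the 4 called genes and Klf6 were set beside the marker sums of each isolation. The immediate early, pericyte, smooth muscle, fibroblast, RPE and endothelial sums were higher in every P30 isolation than in every P5 isolation, and the haematopoietic sum overlapped. The 7 smooth muscle markers had a sum of 560.4 to 595 FPKM at P5 against 716 to 1469 at P30, a 1.79-fold rise in its mean. Most of the P5 sum was Smtn, whose mean did not rise (448 at P5 and 421 at P30). The means of the other smooth muscle markers rose more than the sum did. Among them were Acta2 (4.22-fold), Tagln (4.15-fold), Des (5.27-fold), Myh11 (10.3-fold) and Lmod1 (10.6-fold). The 7 fibroblast markers had a sum of 725 to 1193 against 1782 to 4490.4. The photoreceptor sum was at most 13.9 at P5 and reached 364 at P30, whereas the pigment cell sum overlapped between the ages. Between the P30 isolations S1pr1 stayed within 1212 to 1289 and Klf4 within 1725 to 1973, while Klf2 was lowest in replicate 2, where the pericyte, smooth muscle and fibroblast sums were highest and the endothelial sum lowest. The 9 haematopoietic markers, whose cells can also express Klf2 and Klf4, had a sum of 541 to 803 at P5 and of 319 to 812 at P30, and the T cell gene Cd3e was listed at 0 in all isolations. Of the 7 haematopoietic markers tested, 2 were called higher at P5, against 5.82% of all genes tested. They were Ptprc (27.1 and 7.82 FPKM at P5 and P30, adjusted p = 0.000732 from limma) and Aif1 (51.4 and 8.90, adjusted p = 0.00368 from limma). Csf1r had 226 and 90.3 (adjusted p = 0.0408 from limma). The 12 cell cycle markers had a sum of 1219 to 1983 at P5 against 415 to 483 at P30. Of them 11 were called higher at P5, against 5.82% of all genes tested. Many of the 11, such as Mki67 (mean 2.23 FPKM at P30) and Top2a (2.33), passed the minimum for the test only through their P5 means. Those could be called in that direction alone. The part of other cells in the differences of the 10 genes was not tested.

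**Figure D4:**
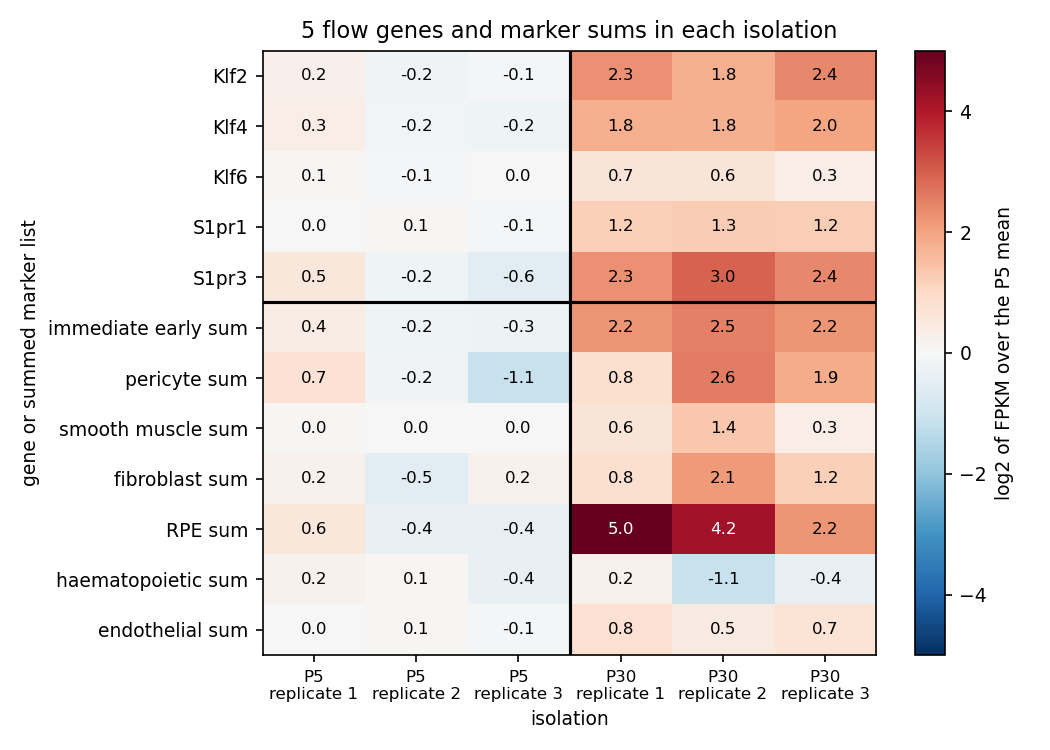
Log2 of the FPKM of 5 genes and of the summed FPKM of 7 marker lists in each isolation, over the mean of the P5 isolations. S1pr1 is even across the 3 P30 isolations, while the RPE sum is 3939 in P30 replicate 1 and 554 in P30 replicate 3 and the pericyte sum is highest in P30 replicate 2.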

How the data were processed

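RNA of sorted choroid ECs had been sequenced. Per the labels and the methods, the authors used CASAVA 1.8.2 for base calls, TopHat for alignment against mm9 and Cufflinks for FPKM, corrected for GC content and scaled to the upper quartile. The gene annotation is not given in the sources used here. The authors deposited 1 FPKM value per gene symbol and isolation, without pooling isolations. Read counts were not used here. Ratios of low FPKM between samples showed no steps (at most 4.62% of genes in any bin of 0.05 in log2 ratio), so whole reads were not recovered, the depth is unknown and no counting error is given. A gene at 0 is not taken as absent.

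From the deposited FPKM, log2(FPKM + 1) was compared between the ages by limma 3.58.1 (R 4.3.3), using lmFit, eBayes with its trend option and no replicate block. The 12481 genes tested had a mean FPKM of 5 or more at 1 or both ages. Log2 differences and their SE are on this scale, which understates the change of low genes. Fold changes are ratios of mean FPKM. Ratios of genes within an isolation, with 1 added to each FPKM, were compared by permuting the 6 isolations exhaustively (exact, two-sided), for which the lowest p is 0.1. The fit was tested on simulated data. Python 3.11.15 and scipy 1.17.1 were used. Gene positions are those of GENCODE for mm9.

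The members and lists were chosen with earlier results of these data known. Besides the 10 genes, those named were the 3 largest called rises and falls and the 2 genes of each pathway list with the highest mean over all 6 isolations, the 3 genes closest in pattern to Klf2, Klf4, Piezo1, Foxo1 and S1pr1, and 2 genes by the same mean in each marker list that is described. The marker lists, of immediate early genes, ECs, pericytes, smooth muscle, fibroblasts, RPE, photoreceptors, pigment cells, leukocytes and the cell cycle, are given by their sums. Of the 10 genes and 109 pathway genes, 7 were matched by older symbols. Alternatives were other pseudocounts, minimum FPKM values and limits, 3 other scalings, no trend, a replicate block, the fold from the limma coefficient and each isolation left out in turn.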

Additional observations from a re-analysis of the deposited data

How the results depend on the processing

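Klf2, Klf4, S1pr1 and S1pr3 stayed called higher at P30 in each of the 17 other settings, with log2 differences of 1.79 to 2.34, 1.599 to 2.05, 1.01 to 1.33 and 2.35 to 2.89. The labels share replicate numbers, but same-numbered isolations did not deviate together (correlations of -0.0618, -0.0905 and -0.0305). A fit with the replicate block called the same count of 4 of the 10 genes and changed no call among them, and over all genes it called 585 higher at P30 and 524 higher at P5. With the block Klf15 (adjusted p = 0.0168 from limma) and Sgpp2 (0.0183) were not called. At an adjusted p under 0.05 with no fold limit, Klf6 (0.54), Sphk1 (2.28) and Piezo1 (-0.44, the 1 gene of the 10 higher at P5) passed as well, and the pathway genes called numbered 36 (P30 higher) and 13 (P5 higher), in place of 16 and 2. That limit was passed by 38.5% of all genes tested. With equal sums 5 pathway genes were higher at P5, and with centring on the median gene 1. The median of all genes moved by -0.17 with equal sums.

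With each isolation left out in turn, 4 to 5 of the 10 genes were called with P30 higher and 0 with P5 higher. The pathway genes higher at P30 ranged from 10 (without P5 replicate 2 or 3) to 19, and those higher at P5 from 1 (without P5 replicate 3) to 4 (without P30 replicate 1). Over these fits the log2 difference of Sphk1 was 1.98 to 2.78, that of Foxo1 -0.020 to 0.13, and that of the ratio of Foxo1 to Foxo3 -0.52 to 0.024, the latter without P30 replicate 2. Those of Hdac7 were -0.18 to 0.020 and those of Btg1 -0.21 to 0.18.

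Directions reversed for genes that were not called. Foxo1 was at -0.018 with quantile normalization, -0.13 with equal sums, -0.020 without P30 replicate 1 and -0.0080 without P30 replicate 3. Kdr was at -0.11 with quantile normalization, and Tek at -0.22 with it and -0.10 with equal sums. With centring on the median gene Hdac7 was at 0.033, Btg1 at 0.025 and Gnai2 at 0.020. Hdac7 was at 0.020 without P30 replicate 3, and Btg1 at 0.18 without P30 replicate 1 and 0.0098 without P5 replicate 1. The cause was not tested. Calls on Klf15, Sgpp2, Mfsd2a, Irs2, Insr and Piezo2 were lost in at least 1 fit that left out an isolation, Thbd (0.97) and Plpp1 (0.93) fell under 2-fold with quantile normalization, Trib1 (0.89) with equal sums, Piezo2 (-0.96) with centring, and Sgpp2 with a pseudocount of 0.1 (adjusted p = 0.0147 from limma).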

Other observations

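The genes closest in pattern to 5 of the 10 genes were found by the Pearson correlation of log2(FPKM + 1) over the 6 isolations. These are descriptions, since all points share the 2 ages and 555 tested genes had a correlation over 0.95 with Klf2. Closest to Klf2 were Gata2, an endothelial and haematopoietic transcription factor (correlation 0.999, mean FPKM 123 at P5 and 386 at P30), A630072M18Rik (0.998) and Shank3 (0.998). Closest to Klf4 were Tmx2 (0.999), the immediate early phosphatase gene Dusp1 (0.998, 1352 and 6105 FPKM) and 5133401N09Rik (0.998).

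Closest to S1pr1 were Ptprg, a receptor phosphatase (0.999, 323 and 502 FPKM), Mettl7a1 (0.999) and Jdp2, an AP-1 family repressor (0.998). Closest to Piezo1 were Eif3h (0.999), Ints5 (0.997) and Trappc1 (0.996), all lower at P30. Foxo1, which did not differ between the ages beyond its spread, had only 4 genes over 0.95, of which Tcp11l1 (0.993), Ptprcap (0.983) and Cbr2 (0.960) were the closest.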
